A study of Arabidopsis thaliana with 24 samples.

Results

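The response of Kas-1 rosette leaves to mild soil drying was examined in 12 of the 24 arrays of a study of 2 Arabidopsis thaliana accessions, Kas-1 and Tsu-1. The arrays were chosen by their labels: 6 came from leaves of Kas-1 (accession CS903 in the labels) in drying soil (numbers 1 to 6 in the titles) and 6 from leaves of the same accession in wet soil (7 to 12). Dry pots were weighed each day and brought down in steps to about 50% of their water by day 5. Wet pots were handled in the same way and kept near 90%. Plants of both groups grew 1 to a pot in a porous ceramic medium with a 10-h photoperiod at 23 °C by day and 18 °C by night. Leaves were collected in RNAlater, and total RNA was labelled as biotinylated cRNA. The study's design text speaks of 3 biological replicates per combination, and the labels do not tell which arrays might share a plant or an RNA. Each array was treated as a sample. The p-values below therefore set a difference only against the spread of arrays within groups, pooled over the 4 groups of both accessions. Some of that spread may be technical.

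Drying soil lowers leaf water potential and raises abscisic acid, a hormone that closes stomata and switches on genes for protective proteins. Among these are the late embryogenesis abundant (LEA) and cold-regulated (COR) proteins, many of which respond to cold, drought and abscisic acid alike. Slow, mild drying lets a growing plant adjust, and can alter sugar use, cell expansion and nutrient uptake without wilting.

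All values are on the log2 scale of the deposited table, and a change is the mean of the dry arrays minus the mean of the wet arrays on that scale. Of 20514 loci, 12308 lay above the intensity filter and were tested. The medians of the 12 Kas-1 arrays lay between 6.77 and 6.87. Dry arrays 4 and 5 were nearly alike, with a correlation over the tested loci of 0.995 and a median absolute difference of 0.097, against at most 0.985 and at least 0.128 for the other dry pairs. Dry arrays 1 and 2 stood apart. Their scores on the main axis of variation within groups, which held 47.6% of that variance, were 0.33 and 0.66, against -0.36 to -0.10 for the other dry arrays and -0.23 to 0.25 for the wet arrays. Correlations among dry arrays ran from 0.907 to 0.995, and those among wet arrays from 0.958 to 0.985. Results are therefore also given without dry arrays 1 and 2, or with dry arrays 4 and 5 averaged, where that matters. The light-harvesting and photosystem genes that mark leaf tissue had a mean level of 12.74 to 12.97 in dry arrays and 12.85 to 13.02 in wet arrays.

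In dry soil 9 loci fell, which is 0.0731% of the loci tested, and 0 rose (limma, Benjamini-Hochberg adjusted p under 0.05). They include COR15B and AT1G13930, both from the list of LEA and cold-regulated proteins. Others encode 2 enzymes at the entry of sugars into glycolysis, a gibberellin synthesis enzyme, a plastid envelope channel protein and an adaptor of blue-light phototropism. The 9 changes ran from -0.90 to -0.35. The calls rest on small margins: with dry arrays 4 and 5 averaged the count was 0, with adjusted p-values of these 9 loci from 0.0695 to 0.136. It was also 0 when only the Kas-1 arrays were fitted. At an unadjusted p under 0.05 there were 329 loci with higher values in dry soil (2.67% of those tested) and 982 with lower values (7.98%). The median change over the tested loci was -0.04, with 4810 positive and 7498 negative changes. Sizes ran the other way: 192 loci had a change above 0.5 and 93 had one below -0.5, and beyond 1 the counts were 20 higher and 3 lower. The lean to lower values depended on normalisation, as the median change was -0.013 under median centring and -0.015 under quantile normalisation. Of the loci with an unadjusted p under 0.05, 467 of 1189 and 459 of 1216 then had higher values, beside 329 of 1311.

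**Figure D1:**
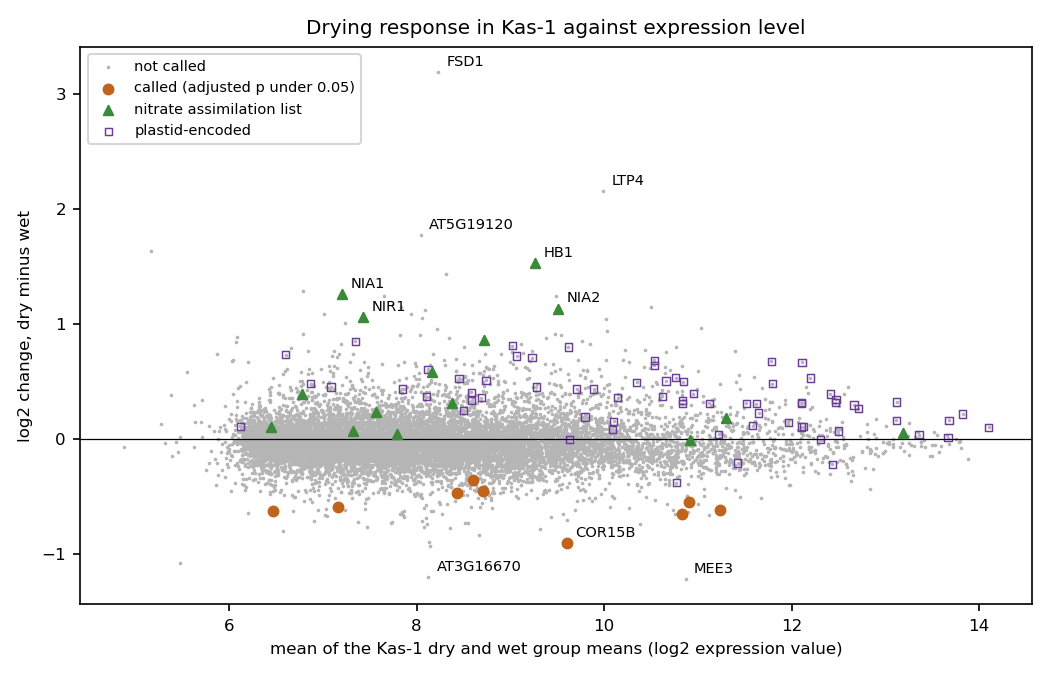
Each point is 1 of 12308 tested loci, with the mean of the Kas-1 dry and wet group means on the x axis (log2 expression value) and the log2 change, dry minus wet, on the y axis. Filled circles mark the 9 called loci, which lie between -0.90 and -0.35. Triangles mark the nitrate assimilation list and open squares the plastid-encoded loci, most of which lie above 0, and the farthest point upward is FSD1 at 3.18.

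The locus with the smallest p was a cold-regulated gene. COR15B (AT2G42530), which encodes a small protein of the chloroplast stroma that protects membranes during freezing, ranged from 8.59 to 9.64 with a median of 9.17 in dry arrays, against 9.80 to 10.29 with a median of 10.04 in wet arrays. All 6 dry arrays lay below all 6 wet arrays, and array 2 was the lowest. Its mean was 9.15 ± 0.35 in dry arrays and 10.05 ± 0.18 in wet arrays (SD, n = 6 each), and it fell by 0.90 (SE 0.15, adjusted p = 0.0343). The wet level was 1.87 times the dry level. Without dry arrays 1 and 2 the change was -0.77 (adjusted p = 0.0370). COR15B was called in 8 of 13 other settings and in 6 of the 12 fits that each left out 1 Kas-1 array. The other 8 called loci were called in 4 to 6 other settings and in 1 to 3 of those 12 fits. Without dry arrays 1 and 2, 6 of them missed the threshold (AT4G30650, AT1G62330, GA2, OEP16-1, AT1G13930 and NPH3, adjusted p from 0.0597 to 0.0820).

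AT1G13930, which was placed in the same list, ranged from 10.76 to 11.28 with a median of 10.86 in dry arrays, against 11.36 to 11.77 with a median of 11.53 in wet arrays. Array 3 was the highest dry array and still lay below the lowest wet array. AT1G13930 fell by 0.62 (SE 0.12, adjusted p = 0.0447). COR413-PM1 (AT2G15970), a cold-regulated multispanning plasma membrane protein, missed the threshold with a change of -0.56 (SE 0.11, adjusted p = 0.0535). Its dry arrays, 10.20 to 10.53, again lay below its wet arrays, 10.72 to 11.20. COR413IM1 (AT1G29395), a member of that family in the chloroplast inner envelope, had a change of -0.73 (adjusted p = 0.168), with 7.56 to 8.38 in dry arrays and 8.47 to 9.27 in wet arrays.

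The list of LEA, dehydrin and cold-regulated proteins had 13 tested members, of which 2 fell and 0 rose. Of these 2, COR15B carries a COR name, and AT1G13930 is listed by its locus number with no LEA or COR name. Like the other lists here, it was chosen with earlier results of these data known, so its counts are a description and not a test. All 13 changes were negative, from -0.90 to -0.08, with a median of -0.17 beside -0.04 for the tested loci as a whole. In 4 of the 13 the 6 dry arrays lay below the 6 wet arrays, which held for 119 of the tested loci (0.967%). The members that missed the threshold include LTI78 (AT5G52310, also known as RD29A), a gene much used to report drought, cold and abscisic acid signalling, at -0.65, the dehydrin genes COR47 (AT1G20440) at -0.17 and ERD10 (AT1G20450) at -0.09, and COR15A (AT2G42540), the close relative of COR15B, at -0.16. Without dry arrays 1 and 2 the 13 changes were again negative and their median was -0.32. RAB18, RD29B, LEA7 and LEA4-5, LEA genes with a strong response to abscisic acid or drought, lay below the intensity filter, with means of 5.39, 5.54, 4.85 and 4.67 in dry arrays and 5.45, 5.30, 4.70 and 4.6 in wet arrays. KIN1 and KIN2 were not analysed here. The arrays hold RNA of whole leaves, in which fewer cells of a type and less RNA per cell cannot be told apart.

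AT4G30650 belongs to the RCI2 family, whose members are very small hydrophobic membrane proteins first found as cold-inducible. It ranged from 10.22 to 10.81 with a median of 10.45 in dry arrays, against 10.93 to 11.41 with a median of 11.17 in wet arrays. The groups did not overlap, although dry arrays 3 and 6 came close to wet array 8. The locus fell by 0.65 (SE 0.12, adjusted p = 0.0447). Of the 6 tested members of the family it was the 1 that was called, and the other changes lay between -0.17 for RCI2A (AT3G05880) and 0.08 for AT1G57550. AT4G30660, its neighbour by locus number, had a change of -0.12.

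**Figure D2:**
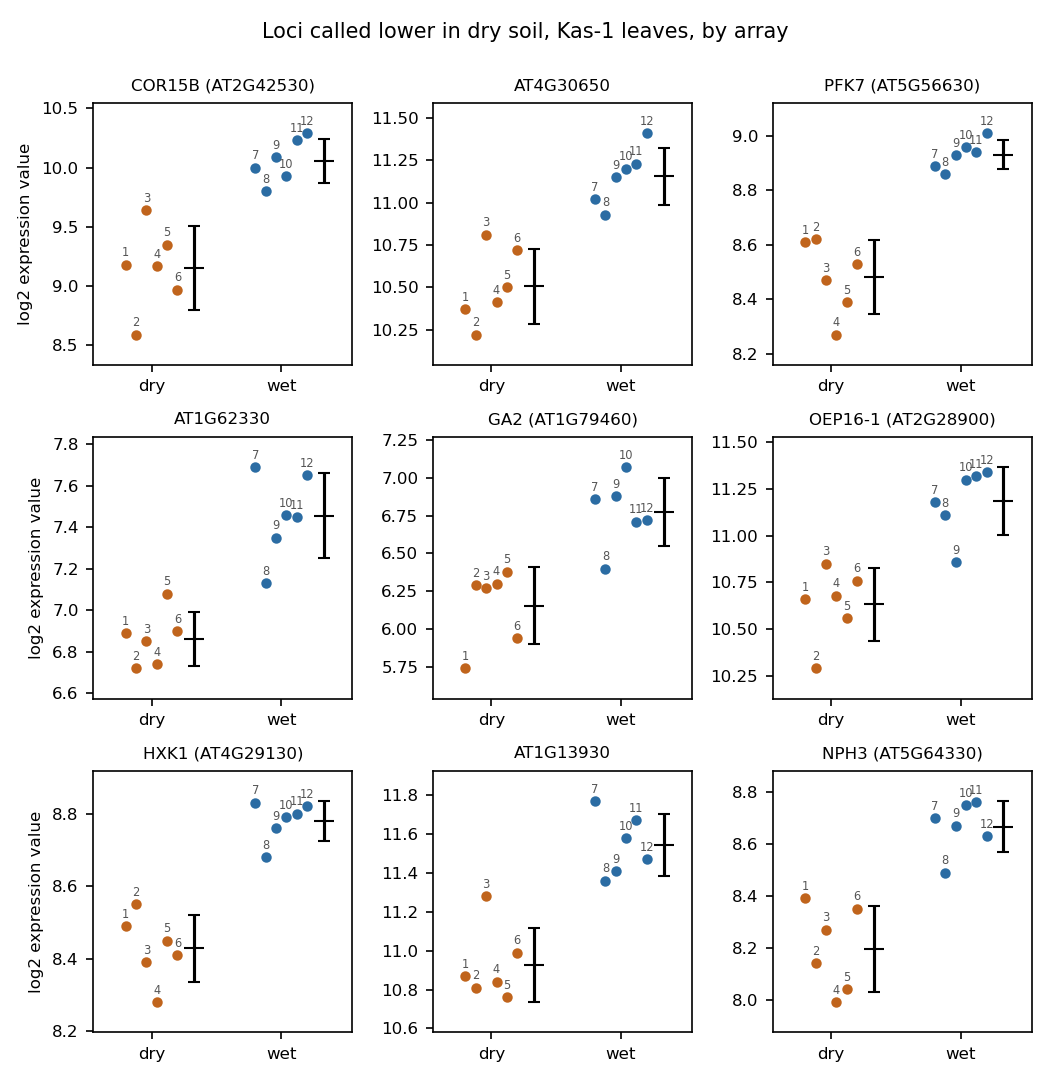
Log2 expression values by array for the 9 called loci, in dry soil (left, arrays 1 to 6) and wet soil (right, arrays 7 to 12) of Kas-1. Points are arrays with their numbers, and the bars beside them give the mean and SD (n = 6). In each panel the 6 dry arrays lie below the 6 wet arrays, with the gap smallest for OEP16-1 (10.85 against 10.86) and GA2 (6.38 against 6.40).

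Sugar metabolism held another pair of called genes. HXK1 (AT4G29130), a hexokinase that phosphorylates glucose and also acts as a glucose sensor, ranged from 8.28 to 8.55 with a median of 8.43 in dry arrays, against 8.68 to 8.83 with a median of 8.79 in wet arrays. The groups were narrow and apart, with SDs of 0.09 in dry arrays and 0.05 in wet arrays. HXK1 fell by 0.35 (SE 0.07, adjusted p = 0.0447). PFK7 (AT5G56630), a phosphofructokinase that commits hexose phosphate to glycolysis, ranged from 8.27 to 8.62 with a median of 8.50 in dry arrays, against 8.86 to 9.01 with a median of 8.93 in wet arrays. Dry array 4 was the lowest, and the groups did not overlap. PFK7 fell by 0.45 (SE 0.08, adjusted p = 0.0447). Both genes stayed past the threshold without dry arrays 1 and 2, with changes of -0.40 for HXK1 (adjusted p = 0.0330) and -0.52 for PFK7 (adjusted p = 0.0297). With 1 array left out at a time, HXK1 was called in 1 and PFK7 in 2 of 12 fits.

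The list of sugar phosphorylation, sucrose and starch enzymes had 27 tested members, of which 2 fell and 0 rose, beside 0.0731% of the tested loci that fell. This list too was chosen with earlier results of these data known, so the count is a description and not a test. Of its changes 8 were positive and 19 negative, with a median of -0.09, and -0.20 without dry arrays 1 and 2. At an unadjusted p under 0.05 there were 6 lower members and 1 higher, beside 7.98% lower and 2.67% higher over the tested loci. Genes of starch breakdown were among the lower ones: DPE2 (AT2G40840), the cytosolic glucanotransferase that handles maltose, had a change of -0.47, SEX1 (AT1G10760), the glucan water dikinase that opens the starch granule, -0.44, and DPE1 (AT5G64860), the plastid glucanotransferase, -0.30. The other was PGM (AT5G51820), the plastid phosphoglucomutase needed for starch synthesis, at -0.35. A cytosolic phosphoglucomutase outside the list, PGM3 (AT1G23190), had a change of -0.37 (adjusted p = 0.0832), with 8.89 to 9.13 in dry arrays and 9.13 to 9.51 in wet arrays. UGP2 (AT5G17310), a UDP-glucose pyrophosphorylase on the way to sucrose and cell walls, was the higher member at 0.27 (adjusted p = 0.137). None of these 6 passed the threshold. HXK2 (AT2G19860), the closest relative of HXK1, had a change of -0.13, and the other tested phosphofructokinase genes lay between -0.07 and 0.23.

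GA2 (AT1G79460) encodes ent-kaurene synthase, an early enzyme of gibberellin synthesis in the plastid. It ranged from 5.74 to 6.38 with a median of 6.28 in dry arrays, against 6.40 to 7.07 with a median of 6.79 in wet arrays. Wet array 8 lay within 0.1 of the highest dry arrays. GA2 fell by 0.62 (SE 0.12, adjusted p = 0.0447). It was the 1 called member among 17 tested genes of gibberellin synthesis and signalling, whose median change was -0.17. The DELLA repressor genes RGA1 (AT2G01570) and GAI (AT1G14920) had changes of -0.29 and -0.33, and GASA6 (AT1G74670), a gibberellin-regulated peptide gene, had one of 0.75. None of these 3 passed the threshold.

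NPH3 (AT5G64330), the adaptor protein that works with the blue-light receptor PHOT1 in phototropism, ranged from 7.99 to 8.39 with a median of 8.21 in dry arrays, against 8.49 to 8.76 with a median of 8.68 in wet arrays. Dry arrays 1 and 6 were the nearest to wet array 8. NPH3 fell by 0.47 (SE 0.09, adjusted p = 0.0493). It was the 1 called member of 15 tested genes of photoreceptors and phototropin signalling, where PHOT1 (AT3G45780) had a change of -0.15, PHOT2 (AT5G58140) one of -0.17 and RPT2 (AT2G30520), a relative of NPH3, one of 0.10. The median of that list was -0.08.

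OEP16-1 (AT2G28900), a channel protein of the outer plastid envelope, ranged from 10.29 to 10.85 with a median of 10.67 in dry arrays, against 10.86 to 11.34 with a median of 11.24 in wet arrays. Dry array 3 and wet array 9 almost met. OEP16-1 fell by 0.55 (SE 0.10, adjusted p = 0.0447), and the other 4 tested genes of OEP16 and related envelope proteins lay between -0.18 and 0.12. AT1G62330 ranged from 6.72 to 7.08 in dry arrays and from 7.13 to 7.69 in wet arrays, without overlap. It fell by 0.59 (SE 0.11, adjusted p = 0.0447).

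Next in order of p on the lower side were COR413-PM1, given above, AT3G11620 at -0.38 and MGD2 (AT5G20410), a galactolipid synthase induced when phosphate is scarce. MGD2 had 6.11 to 6.29 in dry arrays and 6.44 to 6.75 in wet arrays, a change of -0.39 (adjusted p = 0.0695). RGTA1 (AT4G24490), a subunit of the enzyme that attaches lipid anchors to RAB proteins, had a change of -0.31 (adjusted p = 0.0832). The remaining loci among the next 8 by p, AT5G27950, AT1G71070 and AT1G65900, had changes of -0.45, -0.37 and -0.56. Of 12 tested genes of phosphate starvation and galactolipids, 3 had positive changes and the median was -0.10. PHO2 (AT2G33770), an enzyme that limits phosphate loading, had a change of -0.42 (adjusted p = 0.448). The largest lower changes were seen in MEE3 (AT2G21650), a small MYB-like protein gene, at -1.21 (adjusted p = 0.343), and AT3G16670 at -1.20 (adjusted p = 0.118). The third locus beyond -1, AT1G30250, outside the naming rule and named after its values were seen, was dim, with a mean of 4.94 in dry arrays and 6.01 in wet arrays (change -1.07). MEE3 ran from 8.41 to 10.95 in dry arrays and from 10.88 to 12.05 in wet arrays, so that the groups overlapped.

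On the higher side 0 loci passed the test, and the members below are given by value. FSD1 (AT4G25100), the iron superoxide dismutase of the chloroplast, had the largest change, 3.18 (SE 0.82, adjusted p = 0.121). It ranged from 8.78 to 10.92 with a median of 9.87 in dry arrays, against 4.70 to 8.91 with a median of 5.83 in wet arrays. The wet arrays were split: arrays 10 and 12 stood at 8.86 and 8.91, inside the dry range, and the other 4 lay between 4.70 and 5.87, below the filter level of 6.19, so the size of the change is uncertain. Copper supply is known to set FSD1 expression against that of the copper/zinc enzymes. CSD1 (AT1G08830) and CSD2 (AT2G28190), which encode those enzymes, had changes of -0.31 (SE 0.30) and -0.24 (SE 0.35). Their copper chaperone CCS (AT1G12520) had one of -0.21 (SE 0.25). Without dry arrays 1 and 2 the change of CSD2 was -0.08. The other tested FSD genes, FSD2 (AT5G51100) and FSD3 (AT5G23310), had changes of -0.36 (SE 0.25) and -0.05 (SE 0.26). CCH (AT3G56240), a copper-binding chaperone, had values of 9.79 to 10.45 in dry arrays and 9.10 to 9.75 in wet arrays, without overlap, a change of 0.56 (adjusted p = 0.144). Over the 15 tested genes of leaf iron and copper status the median change was 0.07, with 11 positive, and -0.04, with 7 positive, without dry arrays 1 and 2. SPL7 (AT5G18830), the regulator of the response to low copper, had a change of -0.24.

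CAT2 (AT4G35090), the peroxisomal catalase that removes hydrogen peroxide from photorespiration, ranged from 10.58 to 11.12 with a median of 10.83 in dry arrays, against 9.67 to 10.56 with a median of 10.04 in wet arrays. The groups did not overlap, and wet array 7 came within 0.1 of dry array 3. The change was 0.77 (SE 0.18, adjusted p = 0.0906). The catalase genes CAT1 (AT1G20630) and CAT3 (AT1G20620) had changes of 0.04 and -0.15. Of the 19 tested superoxide dismutase, catalase and peroxidase genes 5 had positive changes, and the median was -0.15. Among 24 tested genes of the Calvin cycle and photorespiration 18 changes were positive, with a median of 0.06. GOX1 (AT3G14420) and GOX2 (AT3G14415) had identical values, with a change of 0.13 each, so these counts may hold 1 measurement more than once. GLDP1 (AT4G33010) and SHM1 (AT4G37930), which act in the photorespiratory breakdown of glycine, had 0.32 and 0.16.

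LTP4 (AT5G59310), a lipid transfer protein gene that responds to abscisic acid, ranged from 9.96 to 12.76 with a median of 10.77 in dry arrays, against 7.70 to 10.77 with a median of 8.65 in wet arrays. Dry arrays 1 and 2 were the highest, at 12.76 and 12.12, and wet array 12 lay inside the dry range. The change was 2.15 (SE 0.55, adjusted p = 0.118), and 1.47 without dry arrays 1 and 2. AT4G23670 ranged from 9.62 to 10.20 in dry arrays and from 8.72 to 9.29 in wet arrays, a change of 0.92 without overlap (adjusted p = 0.0947). AT5G19120 also showed no overlap, with 8.01 to 9.70 in dry arrays and 5.59 to 7.98 in wet arrays, a change of 1.77 (SE 0.61, adjusted p = 0.275). In all, 21 loci (0.171% of those tested) had 6 dry arrays above 6 wet arrays, and with the lower ones 140 (1.14%) showed no overlap. LOG1 (AT2G28305), a cytokinin-activating enzyme, had a change of 0.52 (adjusted p = 0.0832), and AOP2 (AT4G03060), an enzyme that modifies the side chain of aliphatic glucosinolates, one of 0.78 (adjusted p = 0.113). EGY3 (AT1G17870), AT1G24440 and AT4G30450, also among the 8 smallest p-values on the higher side, had changes of 0.58, 0.42 and 0.41. DIN10 (AT5G20250), a gene induced by darkness and low sugar, had a change of 1.15 (adjusted p = 0.188), with 10.31 to 11.46 in dry arrays and 9.60 to 10.51 in wet arrays.

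Nitrate assimilation was taken up as a list after the values of its members had been seen, and no test was made of it. Nitrate is reduced to nitrite by nitrate reductase and then to ammonium by nitrite reductase, whose siroheme cofactor needs the methyltransferase UPM1. NIA1 (AT1G77760), a nitrate reductase gene, stood at 7.77, 7.16, 7.44, 8.55, 8.62 and 7.46 in dry arrays 1 to 6, against 6.76, 6.55, 6.55, 6.57, 6.27 and 6.75 in wet arrays 7 to 12. NIA2 (AT1G37130), the major nitrate reductase gene of leaves, stood at 9.67, 9.54, 9.98, 10.71, 10.60 and 9.96 in dry arrays, against 9.07, 8.78, 8.97, 9.17, 9.19 and 8.50 in wet arrays. For both genes each dry array lay above each wet array, and the near-identical dry arrays 4 and 5 were the highest. The changes were 1.26 for NIA1 (SE 0.33, adjusted p = 0.125) and 1.13 for NIA2 (SE 0.35, adjusted p = 0.234), and 1.11 and 1.02 with dry arrays 4 and 5 averaged. NIR1 (AT2G15620), the nitrite reductase gene, ranged from 6.46 in dry array 2 to 9.28 in dry array 4, against 6.64 to 7.34 in wet arrays. Its dry arrays thus lay on both sides of the wet range, and its change was 1.06 (SE 0.48), 1.64 without dry arrays 1 and 2 and 0.80 with dry arrays 4 and 5 averaged. UPM1 (AT5G40850) ranged from 8.77 to 9.49 with a median of 9.17 in dry arrays, against 7.85 to 8.52 with a median of 8.42 in wet arrays. These groups did not overlap either, and UPM1 had the smallest p of all loci with a higher mean in dry soil, with a change of 0.86 (SE 0.18, adjusted p = 0.0797).

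Of the 15 tested nitrate genes 14 had positive changes, with a median of 0.31, and 0.24 without dry arrays 1 and 2. HB1 (AT2G16060), a non-symbiotic haemoglobin gene that responds to nitrate and to low oxygen, had the largest change of the list at 1.53 (SE 0.65), but 0.70 without dry arrays 1 and 2. The high-affinity transporter gene NRT2:1 (AT1G08090) had a change of 0.39, and NRT1.1 (AT1G12110), a transporter that also senses nitrate, one of -0.01. Later steps had values near 0: GS2 (AT5G35630), the plastid glutamine synthetase, had a change of 0.06 and GLU1 (AT5G04140), a glutamate synthase, one of 0.19.

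**Figure D3:**
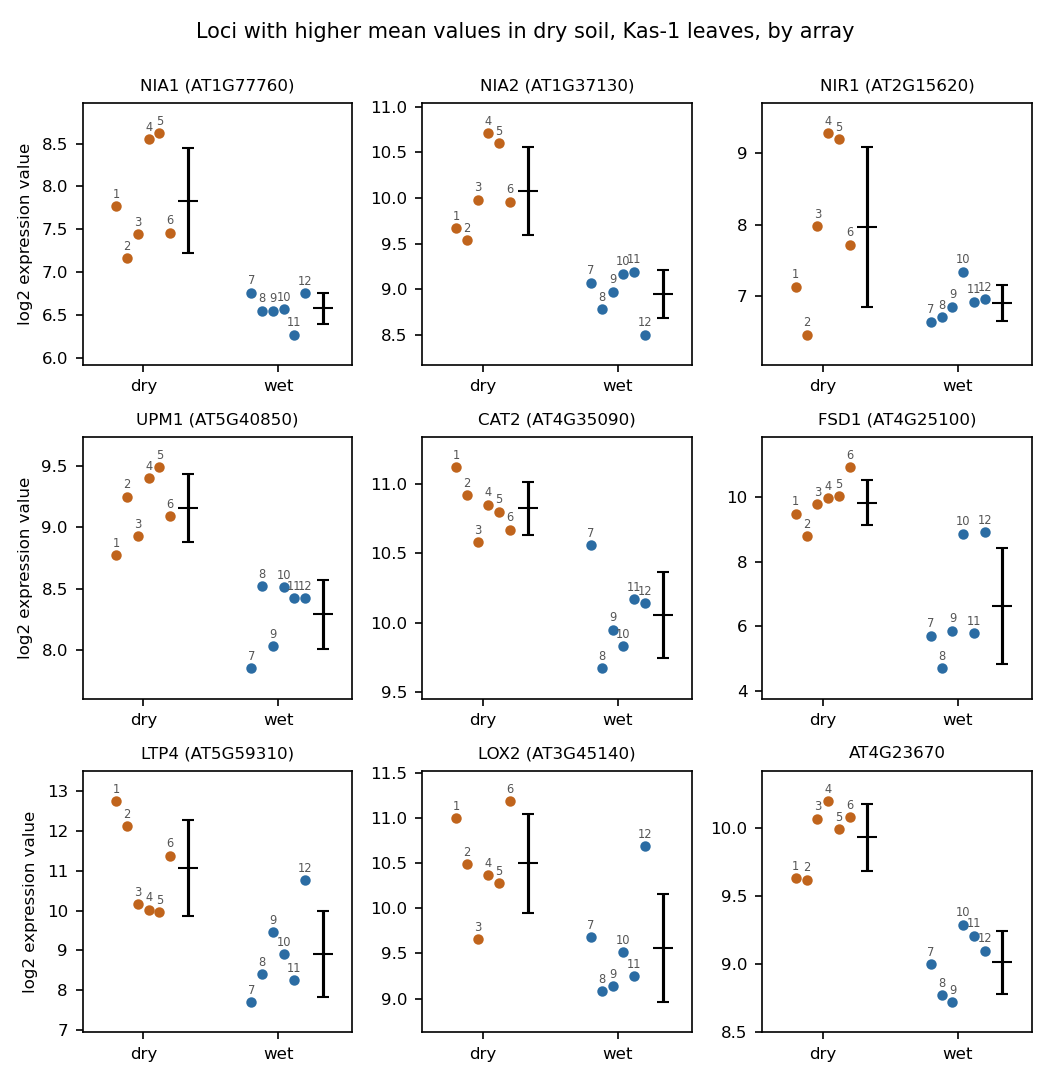
Log2 expression values by array for 9 loci with higher means in dry soil (left, arrays 1 to 6) than in wet soil (right, arrays 7 to 12) of Kas-1, none of which passed the test. Points are arrays with their numbers, and bars give the mean and SD (n = 6). Dry arrays 4 and 5 are the highest for NIA1, NIA2 and NIR1, dry arrays 1 and 2 are the highest for LTP4, and wet arrays 10 and 12 stand near the dry arrays for FSD1.

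The plastid-encoded loci were also taken up after their values were seen. Of 68 tested, 63 had positive changes, from -0.38 to 0.85, with a median of 0.34, whereas 39.1% of the tested loci had positive changes. At an unadjusted p under 0.05 there were 29 with higher values in dry soil and 0 with lower values, beside 2.67% and 7.98% over the tested loci, and none was called. The median was 0.36 without dry arrays 1 and 2. Their mean level overlapped between the groups, with 10.44 to 11.17 in dry arrays and 9.99 to 10.92 in wet arrays. Of the 12 tested mitochondrion-encoded loci 11 had positive changes, with a median of 0.33, and 0.13 without dry arrays 1 and 2. Of 27 nuclear genes of light harvesting and the photosystems, 6 had positive changes and the median was -0.05. Without dry arrays 1 and 2, 17 of them were positive and the median was 0.015.

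Marker genes of drought and abscisic acid gave a mixed picture that leaned on dry arrays 1 and 2. Of 14 tested, 0 were called and 9 had positive changes, with a median of 0.19, but without those arrays 5 were positive and the median was -0.17. RD26 (AT4G27410), a NAC factor gene induced by drought and abscisic acid, had a change of 0.63, and -0.22 without them. RD20 (AT2G33380), a caleosin gene, had 0.28 and -0.23, and ERD1 (AT5G51070), a plastid protease regulator gene, 0.11 and -0.43. RD22 (AT5G25610), a drought-inducible gene, had -0.34, and -0.43 without dry arrays 1 and 2. Of 19 tested genes of abscisic acid perception and signalling 7 changes were positive (median -0.07), and GBF2 (AT4G01120), a bZIP factor gene, had one of -0.42 (adjusted p = 0.110). Among 9 tested genes of abscisic acid synthesis, release and breakdown the median was -0.06. BGLU18 (AT1G52400), which frees abscisic acid from its glucose ester, had a change of 1.44 (adjusted p = 0.406) with overlapping groups. All 6 tested genes of proline and raffinose metabolism had negative changes, with a median of -0.14. Of 10 tested CBF and related transcription factor genes, among them the regulators of COR genes in cold, 7 had positive changes, with a median of 0.19, against 5 and 0.03 without dry arrays 1 and 2. CBF2 (AT4G25470) had 0.49, and 0.34 without them. RAV1 (AT1G13260), the member with the smallest p, went the other way, at -0.32 (adjusted p = 0.286), and -0.31 without those arrays.

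Jasmonate and touch genes were higher on average in dry arrays, and here too the list medians moved with dry arrays 1 and 2. Of 9 tested jasmonate synthesis genes 7 had positive changes, with a median of 0.58, but 0.02 without those arrays. LOX2 (AT3G45140), the chloroplast lipoxygenase at the start of the pathway, kept most of its change, with 0.94 over all arrays (SE 0.26, adjusted p = 0.148) and 0.81 without dry arrays 1 and 2. The other synthesis gene with an unadjusted p under 0.05, AOC4 (AT1G13280), was lower, at -0.29, and -0.27 without dry arrays 1 and 2. For 15 tested jasmonate repressors and output genes the median was 0.33, with 13 positive, and -0.06, with 6 positive, without them. JAZ1 (AT1G19180), a repressor gene that jasmonate induces, had 1.24 over all arrays and 0.63 without them. JR1 (AT3G16470), which had the smallest p of these genes, had 0.58, and 0.77 without dry arrays 1 and 2. Touch, wounding and handling were represented by 18 tested genes, of which 16 had a positive value, with a median of 0.36 (0.13 without dry arrays 1 and 2). Their mean level was 10.08 to 10.96 in dry arrays and 9.58 to 10.76 in wet arrays. For 12 tested senescence and dark-induced genes the median was 0.18 (0.07 without), for 13 salicylic acid genes 0.06 (-0.18 without) and for 6 low-oxygen genes 0.21 (-0.14 without). The salicylic acid output gene PR5 (AT1G75040) had a change of -0.78 (adjusted p = 0.429). None of the members of these lists was called.

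Growth genes leaned the other way, again with dry arrays 1 and 2. Of 24 tested expansin and xyloglucan endotransglucosylase genes, which loosen or rebuild the growing wall, 5 had positive changes and the median was -0.19. Without those arrays 15 were positive and the median was 0.04. The 14 tested aquaporin genes had a median of -0.18 (0.07 without), and PIP2A (AT3G53420), a water channel of the plasma membrane, had -0.20 (-0.22 without). The 11 tested genes of DNA replication and the cell cycle had a median of -0.27 (-0.05 without). The members of that list with an unadjusted p under 0.05, HTA7 (AT5G27670) and CYCD3;3 (AT3G50070), had -0.31 and -0.27 (-0.23 and -0.29 without). Outside the list, the histone H3.1 gene AT5G10390 had a change of -0.83, and -0.27 without dry arrays 1 and 2. None of these loci was called.

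**Figure D4:**
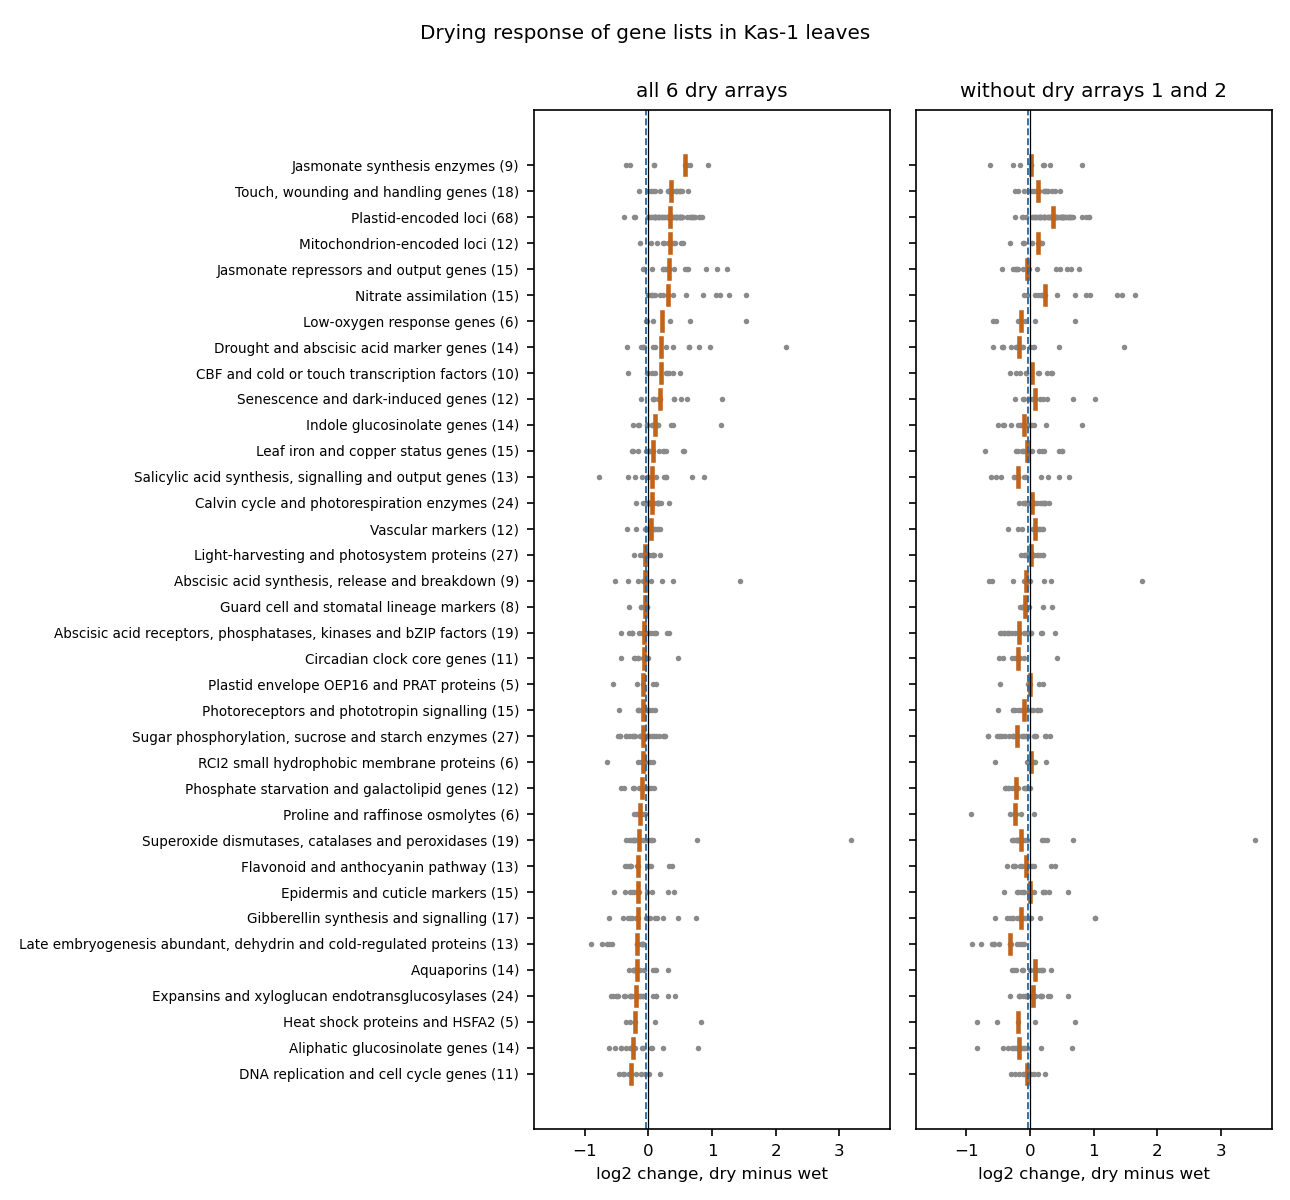
Log2 changes, dry minus wet, of the tested members of the 36 gene lists with at least 5 tested members in Kas-1, with all 6 dry arrays (left) and without dry arrays 1 and 2 (right). Grey points are loci, thick bars are list medians, numbers in brackets are tested members, and the dashed line is the median of the 12308 tested loci (-0.04 in both). The medians of the jasmonate lists move to near 0 in the right panel, whereas those of the LEA and cold-regulated proteins (-0.32) and plastid-encoded loci (0.36) do not.

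The other lists held no called locus. Medians were -0.24 for 14 aliphatic glucosinolate genes, 0.10 for 14 indole glucosinolate genes (-0.09 without dry arrays 1 and 2), -0.16 for 13 flavonoid and anthocyanin genes, -0.08 for 11 circadian clock genes and -0.21 for 5 heat shock genes. Single members lay far from these medians. CYP81F2 (AT5G57220) of the indole list had 1.145 (adjusted p = 0.242), 0.81 without dry arrays 1 and 2, and -0.89 in Tsu-1. HSP18.2 (AT5G59720) of the heat shock list had 0.83, and 0.70 without those arrays. In the clock list 1 change was positive, that of AT3G54500 (0.47), and PRR3 (AT5G60100), a pseudo-response regulator gene, had -0.43. Markers of cell types within the leaf had medians of -0.06 for 8 guard cell and stomatal lineage genes, 0.05 for 12 vascular genes and -0.17 for 15 epidermis and cuticle genes (-0.01 without dry arrays 1 and 2). Most markers of other organs lay below the filter. In the list of roots 2 of 10 loci were tested, NRT2:1 at 0.39, which is also in the nitrate list, and SCR (AT3G54220) at -0.02. In that of trichomes 1 was tested, at -0.19. In that of flowers and bolting 3 were tested, AGL20 (AT2G45660, also known as SOC1) at 0.69, AGL8 (AT5G60910) at 0.18 and FLC (AT5G10140) at -0.42. None of these 3 had an unadjusted p under 0.05. Their mean level was 8.39 in dry array 1, against 7.59 to 7.92 in the other dry arrays and 7.61 to 7.79 in wet arrays. The floral organ genes AP1, AP3, PI, AG, SEP1, SEP2 and SEP3 had means of 3.90 to 5.34 in dry arrays and 3.95 to 5.34 in wet arrays.

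Whether the response differed from that of Tsu-1 was tested with the interaction, the Kas-1 change minus the Tsu-1 change. It called 0 of 12308 loci in limma, and 722 (5.87%) had an unadjusted p under 0.05. In Tsu-1 itself 1 locus was called (0.00812% of those tested) and 591 (4.8%) had an unadjusted p under 0.05. The 9 loci called in Kas-1 had Tsu-1 changes of -0.56 for COR15B, -0.19 for AT1G13930, -0.13 for AT1G62330 and between -0.05 and 0.22 for the other 6. These loci were chosen on their Kas-1 values, and none passed the interaction test. NPH3 came nearest, with changes of -0.47 in Kas-1 and 0.22 in Tsu-1 (interaction -0.69, SE 0.13, adjusted p = 0.0923). The smallest interaction p-values belonged to AT1G53035, with -0.62 in Kas-1 and 0.50 in Tsu-1, and AT5G48960, with -0.43 in Kas-1 and 0.63 in Tsu-1 (adjusted p = 0.0689 for each). AT5G27950 had -0.45 in Kas-1 and 0.21 in Tsu-1 (adjusted p = 0.157), and the histone H2A gene HTA7 (AT5G27670) had -0.31 in Kas-1 and 0.29 in Tsu-1 (adjusted p = 0.347).

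Among loci with higher means in dry soil, FSD1, LOX2, LTP4 and CAT2 had like changes in both accessions, with 3.18, 0.94, 2.15 and 0.77 in Kas-1 and 2.87, 1.08, 1.69 and 0.60 in Tsu-1. The nitrate genes had smaller changes in Tsu-1, with 1.26 in Kas-1 and 0.16 in Tsu-1 for NIA1, 1.13 and 0.27 for NIA2, 1.06 and 0.26 for NIR1, and 0.86 and 0.03 for UPM1. These differences did not pass the interaction test, where their adjusted p-values ran from 0.556 for UPM1 to 0.974 for NIR1. The median of the nitrate list was 0.31 in Kas-1 and 0.07 in Tsu-1, that of the plastid-encoded loci 0.34 and 0.06, and that of the LEA and cold-regulated proteins -0.17 and -0.01. In the last list 4 of 13 members had an unadjusted interaction p under 0.05, beside 5.87% of the tested loci. It was not alone in this, as the aliphatic glucosinolate list had 5 of 14 and the nitrate list 3 of 15.

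**Figure D5:**
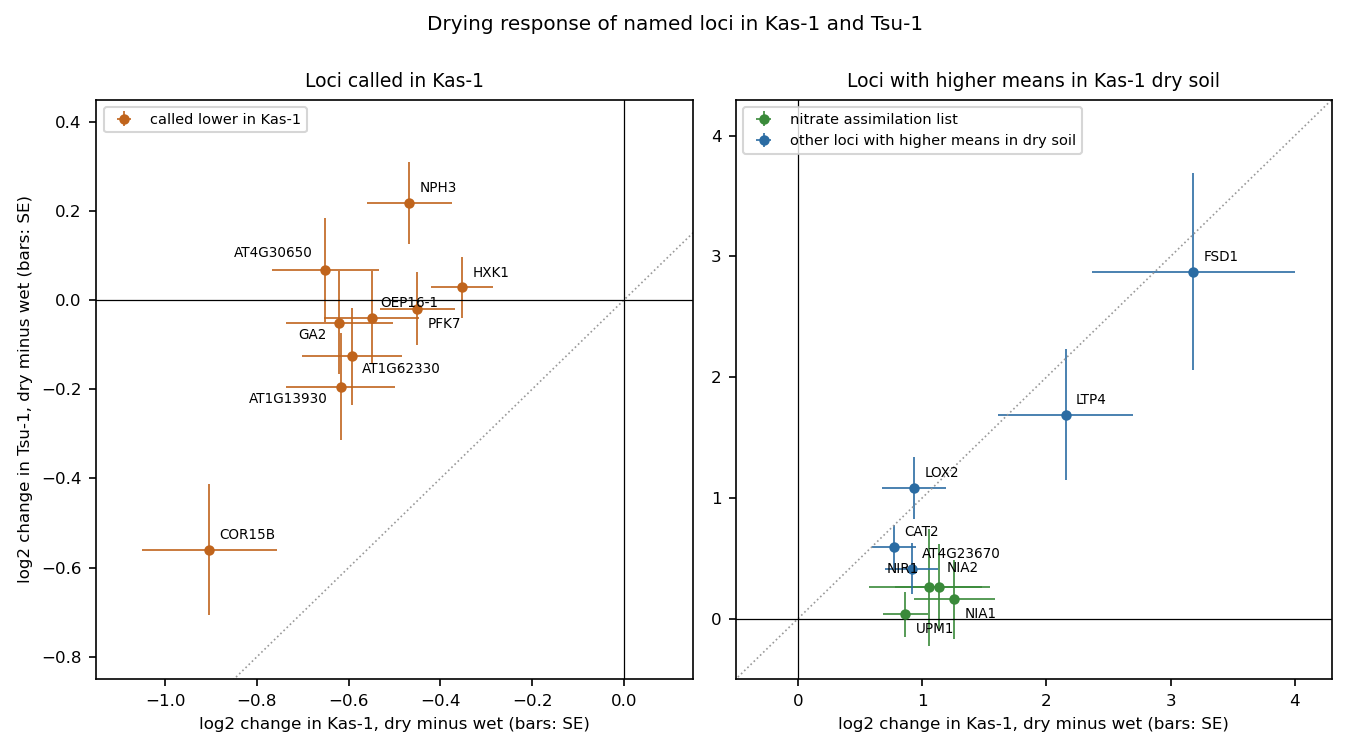
Log2 change, dry minus wet, in Kas-1 (x axis) and Tsu-1 (y axis), with bars for the SE of each change and a dotted line where both are equal. The left panel shows the 9 loci called in Kas-1, of which COR15B has the lowest Tsu-1 change (-0.56). The right panel shows loci with higher means in Kas-1 dry soil, where FSD1, LTP4, LOX2 and CAT2 lie near the line and NIA1, NIA2, NIR1 and UPM1 lie below it.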

How the data were processed

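The authors deposited log2 expression values, 1 per locus and array, and the unit was read from the values (3.12 to 14.2). MAS5 is the only tool named in the submitters' processing notes, so background correction and normalisation are not given in the sources used here. All 24 arrays entered 1 linear model with a mean for each of the 4 groups (limma 3.58.1 in R 4.3.3, with an intensity trend), over 12308 loci with a mean above the 40th percentile (6.19). The two-sided p-values were corrected with the Benjamini-Hochberg method over these loci, and loci were called at an adjusted p under 0.05. The number of arrays limits precision. Symbols come from the RefSeq table for TAIR10.1, which matched 20290 loci, and the plastid loci keep the names of the file. The script was tested on simulated data.

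The loci named are those called, the next 8 by p and, where the higher group mean exceeded 7.95 and the unadjusted p was under 0.05, the 5 largest changes in each direction, 5 loci of the interaction and, per list, called members and some of the 4 with the smallest p. Other list members named with values were picked for their known roles after their values were seen. The 36 lists and the comparison were chosen with earlier results of these data known, and the nitrate, plastid and mitochondrial lists after their values were seen. Other settings tried were quantile normalisation, median centring, other filters, other variance models, array weights, averaged arrays, the Kas-1 arrays alone and each array left out in turn, and, added after the data were seen, dry arrays 1 and 2 left out together.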

Additional observations from a re-analysis of the deposited data

Results flagged for a closer look

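In 296 groups of 6 arrays examined for the named loci, 16 held 1 array far from the other 5, by a gap to the nearest array above Dixon's critical value, and chance gives about 1 in 20. Of these, 8 were dry array 2. That array was low for COR413IM1 (7.56), AT2G31790 (8.85) and CER1 (5.78), and high for RD22 (12.36), PYL5 (8.68), GRX480 (11.09), ASA1 (11.63) and MYB51 (10.64). Dry array 1 was high for GLDP1 (12.37), ELF3 (8.0) and PP2-A1 (10.86). Dry array 6 was high for AT4G30450 (8.68) and low for RGA1 (8.76). Among the wet arrays, array 12 was high for CORI3 (7.44), array 10 for LACS2 (8.79) and array 7 for G6PD2 (8.51).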

How the results depend on the processing

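The count of called loci, 9 over all arrays, depended on the processing. It was 9 under quantile normalisation and with robust variances, 10 without the intensity trend, 8 with a 60th percentile filter, and 1 under median centring or without a filter. In limma it was 0 with dry arrays 4 and 5 averaged, with the Kas-1 arrays alone, with both choices together, and with arrays averaged to 3 per group by consecutive numbers or by numbers 3 apart. Unadjusted p-values under 0.05 then numbered 1147, 1506, 1324, 1133 and 1501. Array weights, which gave dry arrays 1 and 2 weights of 0.42 and 0.28, called 1003 loci, 280 higher and 723 lower, among them the 9. Leaving out each array in turn gave 0 to 18 calls: 0 without dry 4 or without wet 7, 9, 10, 11 or 12, 1 without dry 5, 2 without dry 1, 3 without dry 2, 4 without dry 3 or dry 6, and 18 without wet 8. Without dry arrays 1 and 2 together, a setting chosen after seeing the data, 11 loci were called, 3 higher and 8 lower, and 3 were shared with the 9. The interaction, 0 over all arrays, called 2 loci with a 60th percentile filter, 42 with array weights, 2 without dry arrays 1 and 2, and 0 to 2 with each array left out. Loci without overlap between the groups, 140 in all (1.14%), became 1806 and 2352 with arrays averaged to 3 per group, where fewer arrays make overlap rarer, 827 without dry arrays 1 and 2, and 161 to 329 with each array left out. None of the 9 called loci changed sign under the settings run. The cause of the other shifts was not tested. No paired analysis was possible because the dry arrays (1 to 6) and wet arrays (7 to 12) of Kas-1 share no number.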
